A study of Mus musculus with 12 samples.

Results

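The last interval of an osteoblast differentiation course was examined, in which differentiating MC3T3-E1 cells became what the submitters call mature osteoblasts. The comparison took the 3 arrays of Day 28 and the 3 arrays of Day 10, which are 6 of the 12 arrays in the series, and every one of the 17504 measured rows (probes, or averaged spots of 10 repeatedly printed genes). MC3T3-E1 is an established mouse preosteoblast line, so the groups are 1 line at different ages in culture, with no other strain, genotype or untreated culture beside them. Cells of both days grew in medium with serum, a glycerol phosphate and ascorbic acid. The earlier Day 2 and Day 5 arrays of dividing and growth-arrested cells, grown the same way, gave the reference points for each trajectory. Each value is the log2 ratio of a gene in the cells to a commercial mouse reference RNA on the same array, so a value compares days for 1 gene and does not rank genes against each other. Each array was centred on its median.

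Osteoblasts lay down a collagen matrix, modify and crosslink it, and then let mineral form in it. Cells that mature in such cultures are known to secrete bone matrix proteins and matrix-degrading enzymes, to store and release growth factors, and to respond to steroid and thyroid hormones. A part of them takes on features of osteocytes, the cells buried in bone. In an established line, fewer cells of a kind and less RNA per cell cannot be told apart from a lysate.

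No label states the direction of the ratio or the base of its logarithm, and positive values were taken to mean more RNA in the cells, on a log2 scale. The cells were labelled in Cy3 and the reference in Cy5, so a ratio of Cy5 over Cy3 would run the other way and turn every sign given here. The reading used is likely, and its basis was that, averaged over all arrays, the osteoblast list had a median log2 ratio of 1.56 with 12 of 15 genes above 0, and fibrillar collagens had a median of 1.95 with 10 of 11 above 0. Marker lists of other cell types lay nearer 0, on either side of it. Macrophage genes had a median of -0.09 and a mean of -0.66, lymphocyte genes a median of -0.09 and a mean of -0.90. None of either list averaged above 1. Skeletal muscle and osteoclast lists had medians of -0.04 and -0.02. Endothelial, adipocyte, smooth muscle and chondrocyte lists had medians above 0, at 0.06, 0.12, 0.21 and 0.23. Day 10 replicate 3 stood apart from all other arrays: its mean correlation with the other Day 10 arrays was 0.795, and the median of 45 mitosis genes was -2.34 on it, against -0.88 and -0.90 on the other Day 10 arrays. Values without that array are given beside some, not all, of the results it moved. The labels do not say whether the replicates of a day were separate cultures, so each p-value rests on a spread among arrays that may be purely technical, and 3 arrays a day limit the precision.

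Far more rows rose than fell, in the direction taken here. With limma and Benjamini-Hochberg adjustment over all rows, 147 rows (0.84%) had an adjusted p under 0.05, of which 124 (0.708%) were higher and 23 (0.131%) were lower on Day 28. With the ratio turned, 23 would be higher and 124 lower. They named 119 genes that rose and 19 that fell, and 8 rows had no gene name. Of the rises, 81 rows were over 2-fold and 15 over 4-fold, while 14 of the falls were over 2-fold and 1 was over 4-fold. The groups did not overlap in any of the 147 rows, which follows largely from choosing rows on these same arrays. Over all rows, 3194 (18.2%) did not overlap. Calls depended on single arrays: 65, 81 and 69 rows passed without Day 28 replicate 1, 2 or 3, 79 without Day 10 replicate 1, and 198 without Day 10 replicate 3. A total of 52 of the 147 rows (49 higher and 3 lower) kept their call whichever array was left out.

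Dio2 and Hsd11b1, enzymes that activate hormones inside the cell, were among the 15 largest rises. Dio2, the deiodinase that turns the prohormone thyroxine into active thyroid hormone inside cells, had log2 ratios of 3.97, 4.08 and 3.95 on Day 28, against 0.41, -0.18 and 1.93 on Day 10. Hsd11b1, which regenerates active glucocorticoid from its inactive keto form, read 2.24, 2.14 and 2.58 on Day 28, against -0.09, 0.13 and -0.03 on Day 10. All Day 28 arrays lay above all Day 10 arrays for both genes, and the highest Dio2 value of Day 10 was on the array that stood apart. The difference was 3.29 for Dio2 (SE 0.39, 9.75-fold, limma adjusted p = 0.00106) and 2.32 for Hsd11b1 (SE 0.15, 4.98-fold, limma adjusted p = 7.58e-06). On the earlier days Dio2 averaged -0.09 on Day 2 and 0.19 on Day 5, and Hsd11b1 averaged -0.47 on Day 2 and -0.37 on Day 5. The change from Day 10 to Day 28 exceeded that from Day 2 to Day 5 by 3.00 for Dio2 and by 2.22 for Hsd11b1, with limma adjusted p-values of 0.0278 and 0.000367 for that difference. Both genes were picked for the last change, so this test is not independent of their selection. Of the other 4 measured thyroid hormone genes none passed, among them the deiodinase Dio1 (0.18) and the receptor Thrb (0.30).

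**Figure D1:**
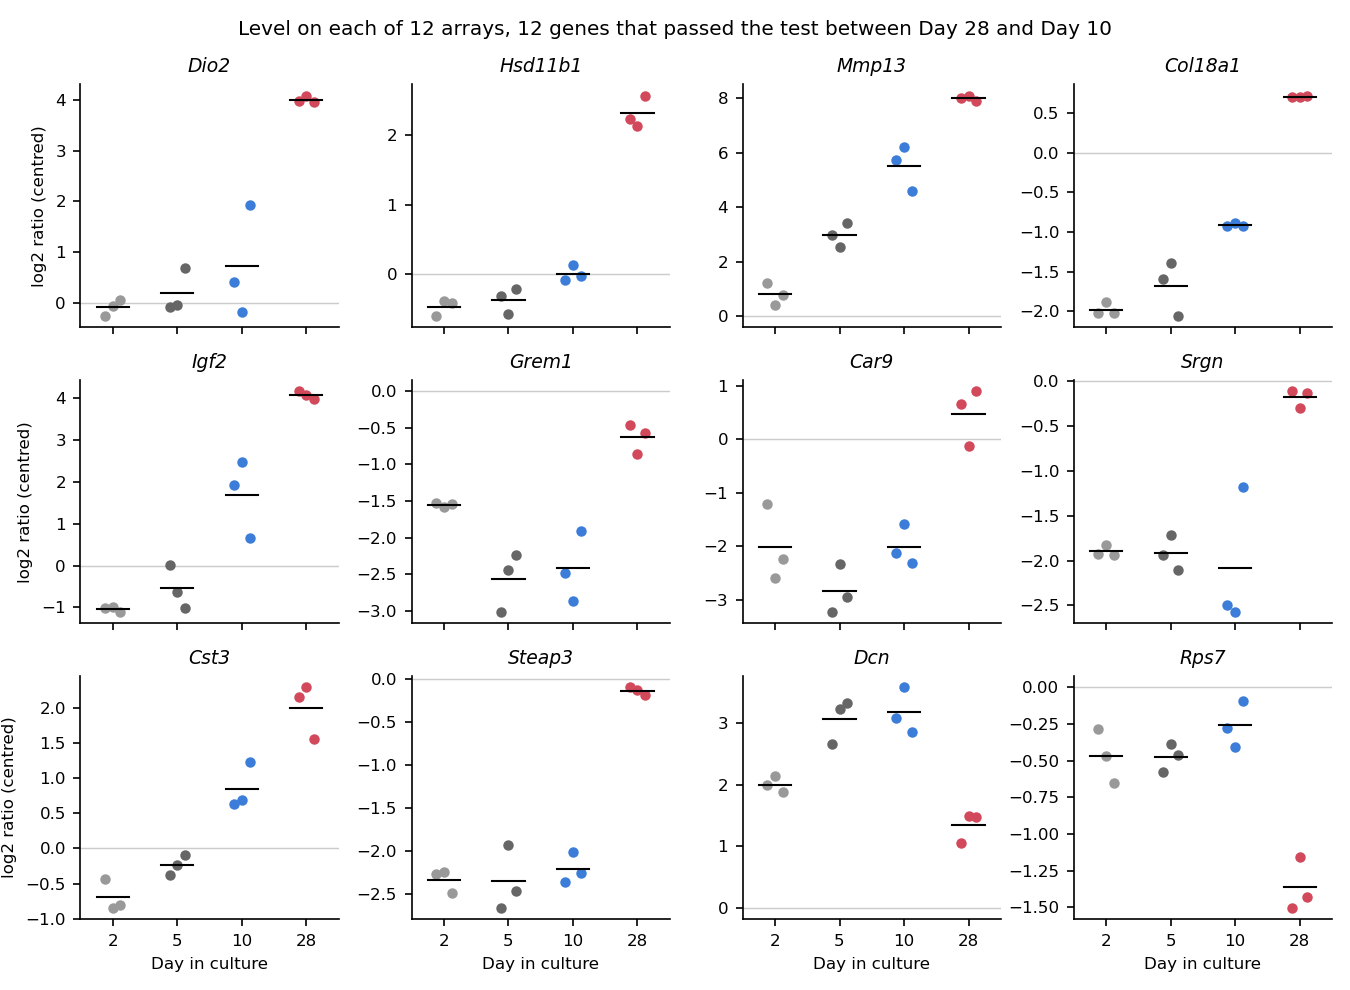
Log2 ratios to the reference RNA (y axis, centred) of 12 genes on every array of Day 2, Day 5, Day 10 and Day 28 (x axis), with points for arrays and bars for the mean of 3 arrays. The 3 Day 28 points of Steap3 and Hsd11b1 lie above all those of the other days, the means of Mmp13 and Cst3 were higher on each later day, and Dcn and Rps7 were lower on Day 28 than on Day 10.

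Enzymes and inhibitors of matrix turnover held 5 rises. Of 28 measured matrix proteases and inhibitors, 5 rose (17.9%, against 0.708% of all rows), none fell, 20 lay above 0 and the median difference was 0.18 (0.11 under quantile normalization), against 0.01 for all rows. Mmp13, the collagenase that cleaves fibrillar collagen in bone and cartilage, read 8.00, 8.09 and 7.89 on Day 28, against 5.73, 6.22 and 4.60 on Day 10. The lowest of these came from Day 10 replicate 3, and without that array the difference was 2.02 in place of 2.48 (SE 0.34, limma adjusted p = 0.00333 with all arrays). Under quantile normalization it was 1.42 and still passed. Its mean was 0.81 on Day 2 and 2.99 on Day 5, so the mean was higher on each later day, and its change from Day 2 to Day 5 (2.18) differed from that of the last interval by 0.30 (SE 0.49), which did not pass. The other 4 rises were near 2-fold: the metalloprotease Adam12 by 1.31, the secreted protease inhibitor Serpinf1 by 1.05, the serine protease Htra1 by 0.95, and Timp1, an inhibitor of matrix metalloproteases, by 0.93. These 4 kept their call in 8, 9, 2 and 9 of the 12 fits that each left out 1 array. The gelatinase Mmp2 and the membrane protease Mmp14, both well above the reference, differed by -0.03 and -0.14 and did not pass.

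The promoter of Mmp13 is known as a meeting point of Runx and AP-1 factors, so its RefSeq window (GRCm38.p6, chr9:7272264-7272563, plus strand, 250 bases before to 50 after the gene's start) is shown, with matches on either strand in capitals, to the Runx-type word TGTGGT, to the AP-1-type word TGANTCA and to the TATA word TATAAA.
Mmp13: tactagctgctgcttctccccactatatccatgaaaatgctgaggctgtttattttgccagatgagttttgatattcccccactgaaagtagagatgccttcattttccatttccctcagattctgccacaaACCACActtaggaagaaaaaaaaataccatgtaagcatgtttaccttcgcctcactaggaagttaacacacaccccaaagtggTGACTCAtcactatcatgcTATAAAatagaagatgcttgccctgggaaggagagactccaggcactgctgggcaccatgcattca
The window held 1 match of each: the Runx-type word, read on the other strand, began at -118 from the gene's start, the AP-1-type word at -35 and the TATA word at -16. Over 32851 RefSeq windows of the same length, 16.8% held TGTGGT, 7.81% held TGANTCA and 13.6% held TATAAA. A match is a description of the letters only. Among AP-1 genes, Fosl2, a Fos family subunit, read -0.64, -0.60 and -0.77 on Day 28, against -1.71, -1.97 and -2.22 on Day 10. Every Day 28 array was above every Day 10 array, and the difference of 1.30 (SE 0.23) passed (limma adjusted p = 0.0184), though not without any 1 of the Day 28 arrays (1.17 to 1.43 over all fits that left out 1 array). It was the 1 member called among 19 immediate early genes, against 0.84% of all rows, and Fos and Jun differed by 0.28 and -0.01.

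Among matrix proteins, a fibulin, a basement membrane collagen and a matrilin rose. Fbln7, a fibulin of the extracellular matrix, read 2.09, 2.40 and 1.90 on Day 28, against -1.17, -0.99 and -0.98 on Day 10, a difference of 3.17 (SE 0.23, limma adjusted p = 1.91e-05). Col18a1, the basement membrane collagen whose tail is the source of endostatin, read 0.70, 0.70 and 0.72 on Day 28, against -0.92, -0.88 and -0.93 on Day 10. Arrays of 1 day hardly differed for Col18a1, and the difference was 1.62 (SE 0.16, limma adjusted p = 0.000213). It was the 1 rise among 22 measured basement membrane genes, against 0.708% of all rows, and the collagen IV gene Col4a1 differed by 0.09. In the elastic fibre list 13 of 16 genes lay above 0 and 2, Fbln7 and Ltbp2, rose. Among 20 matricellular and adhesive glycoproteins 13 lay above 0 and 2 rose, each list against 0.708% of all rows. These 2 were Matn2 and Ccn5, a CCN family protein (1.04, kept in 1 of the 12 fits that left out 1 array). Matn2, a matrilin that links matrix filaments, rose by 0.96, and Ccdc80, a secreted protein of matrix and fat tissue named after its values were seen, by 1.27, with Day 28 arrays at 2.63, 2.63 and 2.66 and Day 10 arrays at 1.32, 1.37 and 1.44.

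Fibrillar collagens gave 1 call of 11, against 0.84% of all rows, and the size of their median depended on the normalization. Of 11 fibrillar collagens 9 lay above 0, with a median of 0.45 that came to 0.043 under quantile normalization, and 4 (36.4%) had all Day 28 arrays above all Day 10 arrays, against 9.74% of all rows. Col24a1, a minor fibrillar collagen of developing bone, was the 1 that passed (0.91, SE 0.18, limma adjusted p = 0.0343), and it kept its call in 6 of the 12 fits that left out 1 array. The chains of type I collagen read 2.87, 2.58 and 2.62 (Col1a1) and 3.54, 3.32 and 3.51 (Col1a2) on Day 28, against 2.24, 2.41 and 1.64 (Col1a1) and 3.04, 3.00 and 2.05 (Col1a2) on Day 10. In both genes Day 10 replicate 3 was the lowest array, and the median of the list was 0.24 without it. Among 19 genes of collagen modification, 14 lay above 0 and 8 had arrays that did not overlap, all upward, against 9.74% of all rows. Only the lysyl hydroxylase Plod1 passed there (0.95), in the main setting and 10 of 22 alternatives. A further Plod1 probe differed by 0.11, so its 2 probes disagree, and with both averaged the difference was 0.53 and did not pass.

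The decorin gene fell. Dcn, a small proteoglycan that binds collagen fibrils and TGF-beta, read 1.06, 1.48 and 1.48 on Day 28, against 3.09, 3.58 and 2.85 on Day 10. The groups lay more than 1 unit apart, and the fall by 1.83 (SE 0.21, 3.56-fold, limma adjusted p = 0.00106) kept its call in all 12 fits that left out 1 array. The related biglycan gene Bgn read 1.80, 1.67 and 1.61 on Day 28, against 1.79, 1.81 and 1.57 on Day 10, a difference of -0.03 that did not pass. Of 10 measured small leucine-rich proteoglycans Dcn was the 1 called, against 0.84% of all rows. The keratocan gene Kera, at 0.07, 0.17 and 0.05 on Day 28, against 0.47, 0.68 and 0.31 on Day 10, also lay wholly below without passing, and the list median was 0.07, but -0.33 without Day 10 replicate 3 and -0.20 under quantile normalization. Between Day 2 and Day 5 Dcn had differed by 1.06 without passing. The difference between both changes, -2.89, passed (SE 0.30, limma adjusted p = 0.000761), and it includes the fall for which Dcn was named.

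Among bone genes, an osteocyte gene and an osteoclast inhibitor rose, another osteocyte gene fell, and the classic osteoblast genes gave no call. Of 7 measured osteocyte genes 1 rose (against 0.708% of all rows) and 1 fell (against 0.131%), with a median of 0.05. Dmp1, a phosphoprotein of osteocytes and mineralizing matrix, read 2.51, 1.98 and 3.02 on Day 28, against 0.87, 0.92 and 1.57 on Day 10. Its difference of 1.39 (SE 0.28) passed with a limma adjusted p = 0.0377, and it kept the call in 4 of the 12 fits that left out 1 array. Tnfrsf11b, which encodes the decoy receptor osteoprotegerin, read 3.05, 3.00 and 3.26 on Day 28, against 2.07, 1.73 and 2.26 on Day 10 (difference 1.09, SE 0.18, limma adjusted p = 0.0107), a call that Day 28 replicate 3 carried, since leaving that array out gave 1.01 and no call. It was the 1 call among 15 osteoblast genes, against 0.84% of all rows, and 9 of the 15 lay above 0. In that list 4 genes (26.7%) had all Day 28 arrays above all Day 10 arrays, against 9.74% of all rows. The 2 that lay wholly below (13.3%, against 8.51% of all rows), Msx2 (-0.98) and Atf4 (-0.67), did not pass. The partner of Tnfrsf11b, the osteoclast-inducing ligand Tnfsf11, differed by -0.25 and did not pass.

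Alkaline phosphatase and bone sialoprotein were not called. Alpl, the phosphatase that frees phosphate for mineral, read 1.46, 1.87 and 1.83 on Day 28, against 2.11, 1.68 and 0.15 on Day 10. Ibsp, the sialoprotein that nucleates mineral, read 2.31, 2.68 and 2.57 on Day 28, against 4.37, 3.74 and 0.74 on Day 10. In both, Day 10 replicate 3 lay far below the other Day 10 arrays and the Day 10 values spanned the whole Day 28 range, and neither passed (adjusted p of 0.809 and 0.89 by limma). The Alpl difference was 0.41 with all arrays and -0.17 without that array. The Ibsp difference was -0.43 with all arrays and -1.53 without it, when all Day 28 values lay below both remaining Day 10 values. Neither passed without it (adjusted p of 0.887 and 0.103 by limma). Cd44, a hyaluronan receptor that osteocytes carry, fell by 0.80 (SE 0.15, limma adjusted p = 0.0282), with Day 28 arrays at 0.13, 0.21 and 0.51 and Day 10 arrays at 1.26, 1.00 and 0.99, and kept its call in 8 of those 12 fits. Other osteocyte genes did not pass, among them Sost (-0.15), Mepe (0.05) and Phex (0.29). Chondrocyte genes gave 1 call of 16, against 0.84% of all rows. This was Cnmd, a cartilage glycoprotein (1.40), while Col2a1, Acan and Sox9 differed by -0.41, 0.15 and -0.09.

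The insulin-like growth factor axis had 2 rises among 15 measured genes, against 0.708% of all rows. Igf2, a growth factor stored in bone, read 4.16, 4.06 and 3.97 on Day 28, against 1.92, 2.46 and 0.65 on Day 10, and Igfbp5, a binding protein that tethers it to matrix, read 4.08, 4.58 and 4.31 on Day 28, against 2.78, 2.30 and 1.86 on Day 10. Neither pair of groups overlapped, and Day 10 replicate 3 was the lowest array for both. The differences were 2.39 (SE 0.36, limma adjusted p = 0.00539) and 2.01 (SE 0.24, limma adjusted p = 0.00106), and 1.87 and 1.79 without that array. Igf1 differed by 1.60 and did not pass. The receptors Igf1r, Insr and Igf2r differed by -0.34, 0.08 and -0.01.

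In the BMP and TGF-beta pathway 2 of 40 genes rose, a secreted antagonist and a ligand, against 0.708% of all rows. Grem1, or gremlin, which binds and blocks BMPs, read -0.46, -0.85 and -0.57 on Day 28, against -2.49, -2.87 and -1.91 on Day 10, a rise of 1.79 (SE 0.24, limma adjusted p = 0.00215). Tgfb1 read 0.92, 0.76 and 0.90 on Day 28, against -0.18, -0.22 and -1.28 on Day 10, a rise of 1.42 (SE 0.26, limma adjusted p = 0.0197) that was lost without any 1 of the Day 28 arrays and came to 1.06 without Day 10 replicate 3. Ltbp2, a microfibril protein of the latent TGF-beta binding family, rose by 1.04, and outside the lists the TGF-beta-induced gene Pmepa1 rose by 1.18 on 1 probe, with 1.05 on the other (limma adjusted p = 0.0533). Nbl1, a further secreted BMP antagonist, rose by 0.83, and Fgf1, a fibroblast growth factor, by 1.19. Pmepa1, Nbl1 and Fgf1 were named after their values were seen.

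Target genes of BMP signalling gave no call. The inhibitors of basic helix-loop-helix factors Id1, Id2 and Id3, direct BMP targets in many cells, differed by 0.78, 0.94 and 1.46, and none passed. Id4, of the same family, differed by -0.28 and did not pass. Id3 read -0.57, -0.77 and -0.68 on Day 28, against -1.68, -1.57 and -3.17 on Day 10, with the lowest value on the array that stood apart. It had fallen by 2.26 between Day 2 and Day 5, and the difference between the last and that earlier change, 3.73, passed (SE 0.49, limma adjusted p = 0.00293). In the Wnt pathway 1 of 50 genes rose, against 0.708% of all rows. This was Sfrp2, a secreted frizzled-related protein, by 0.96 (4.74, 4.81 and 4.84 on Day 28, against 3.93, 3.51 and 4.06 on Day 10). Its call was kept in 13 of 22 alternatives, and quantile normalization gave 0.42 with a limma adjusted p = 0.562. Porcn, which lipidates Wnts for secretion, differed by 0.98 with an adjusted p = 0.0503 from limma, and the target gene Axin2 by 0.09.

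**Figure D2:**
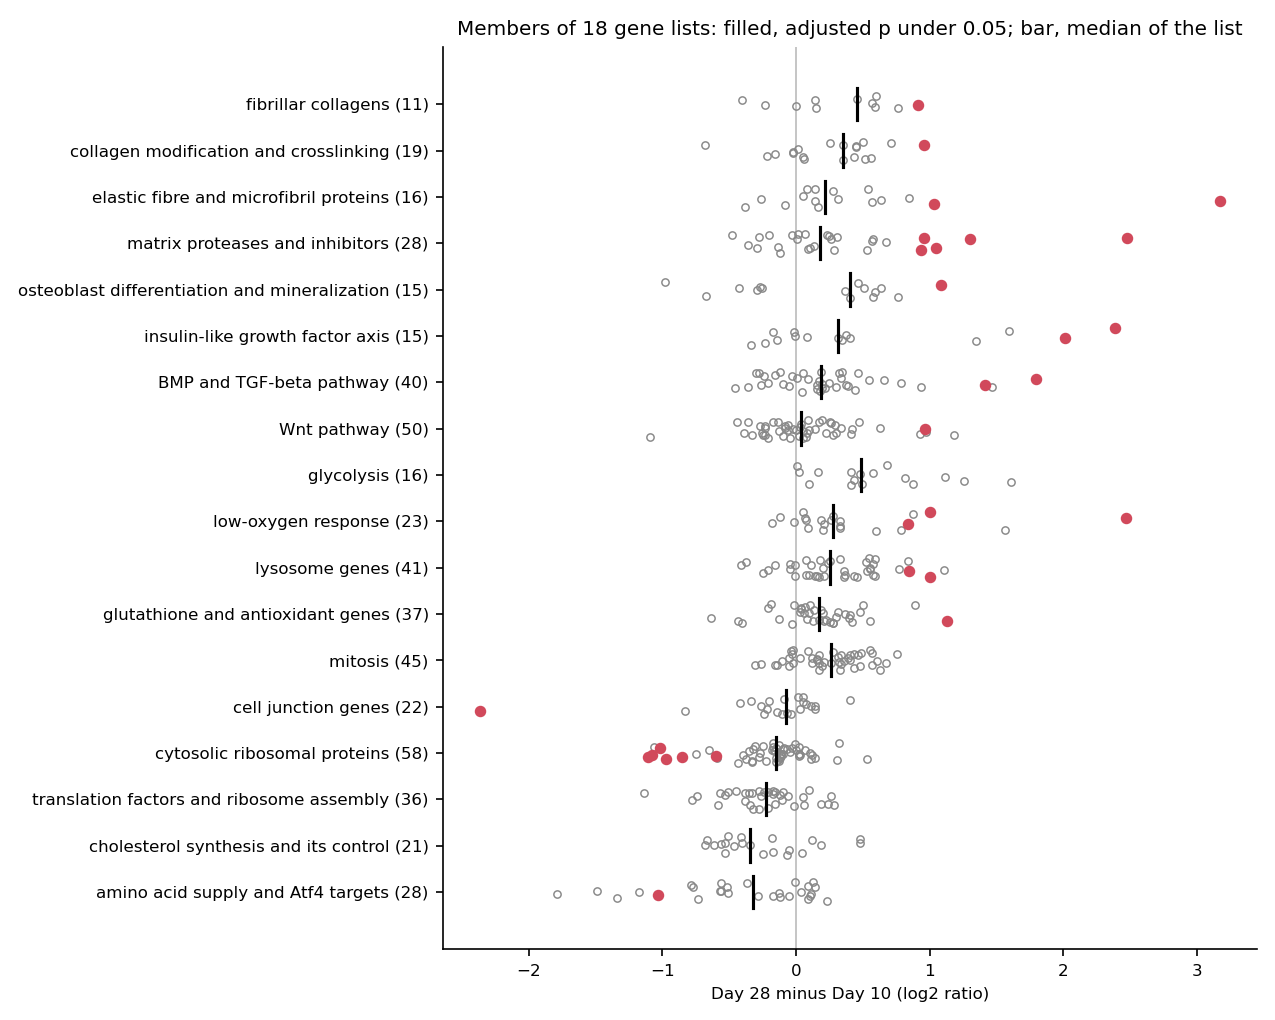
Difference between Day 28 and Day 10 (x axis, log2) for the measured members of 18 gene lists (y axis, number of genes in brackets); filled points passed the test and black bars are list medians. Filled points lie right of 0 for the 5 matrix proteases and inhibitors, the growth factor lists and the 3 low-oxygen genes, and left of 0 for the 6 ribosomal proteins, Bcat1 and Cldn1.

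Of 23 measured genes of the response to low oxygen 3 rose, against 0.708% of all rows, led by carbonic anhydrase 9. That response works through HIF factors, which bind a short core, ACGTG, in the promoters of genes for glycolysis, acid export and oxygen saving. Car9, which handles acid at the cell surface, read 0.65, -0.13 and 0.89 on Day 28, against -2.12, -1.58 and -2.32 on Day 10. Higd1a, a mitochondrial protein induced by low oxygen, read 0.33, -0.11 and 0.39 on Day 28, against -0.94, -0.91 and -0.54 on Day 10. Gbe1, the glycogen branching enzyme, read -0.49, -0.64 and -0.65 on Day 28, against -1.33, -1.36 and -1.62 on Day 10. In all 3 genes the days were separate, and for Car9 and Higd1a Day 28 replicate 2 was the lowest of its day. The rises were 2.47 (SE 0.36, limma adjusted p = 0.00457), 1.00 (SE 0.20, limma adjusted p = 0.0301) and 0.84 (SE 0.13, limma adjusted p = 0.00747), with the call kept in 12, 8 and 11 of the fits that left out 1 array.

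Most members of that list lay above 0, few past the threshold. Of 23 measured members 20 lay above 0, with a median of 0.28, and 8 (34.8%) had all Day 28 arrays above all Day 10 arrays, against 9.74% of all rows, with none the other way. Bnip3, a mitophagy gene, read -1.28, -1.75 and -0.79 on Day 28, against -2.96, -2.73 and -2.80 on Day 10, a difference of 1.56 with an adjusted p = 0.0542 from limma. The oxygen sensor gene Egln3 differed by 0.79 and the growth brake Ddit4 by 1.00, while Vegfa (0.33) and Hif1a itself (0.08) were close to level; none of these passed. Fam162a, a further low-oxygen gene chosen after its values were seen, rose by 1.10 (SE 0.23, limma adjusted p = 0.0426), kept in 3 of the 12 fits. Glycolysis genes had no call, although 16 of 16 lay above 0, the median was 0.49 and 9 (56.3%) did not overlap, all upward, against 9.74% of all rows. Pgk1, phosphoglycerate kinase, came nearest: -0.78, -1.54 and -0.55 on Day 28, against -2.76, -2.46 and -2.47 on Day 10, a difference of 1.61 (SE 0.35, adjusted p = 0.0542 by limma). Ldha, lactate dehydrogenase, averaged over 17 spots an array, read -0.41, -0.68 and -0.29 on Day 28, against -1.16, -1.24 and -1.61 on Day 10, a difference of 0.88 that did not pass (adjusted p = 0.174 by limma).

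**Figure D3:**
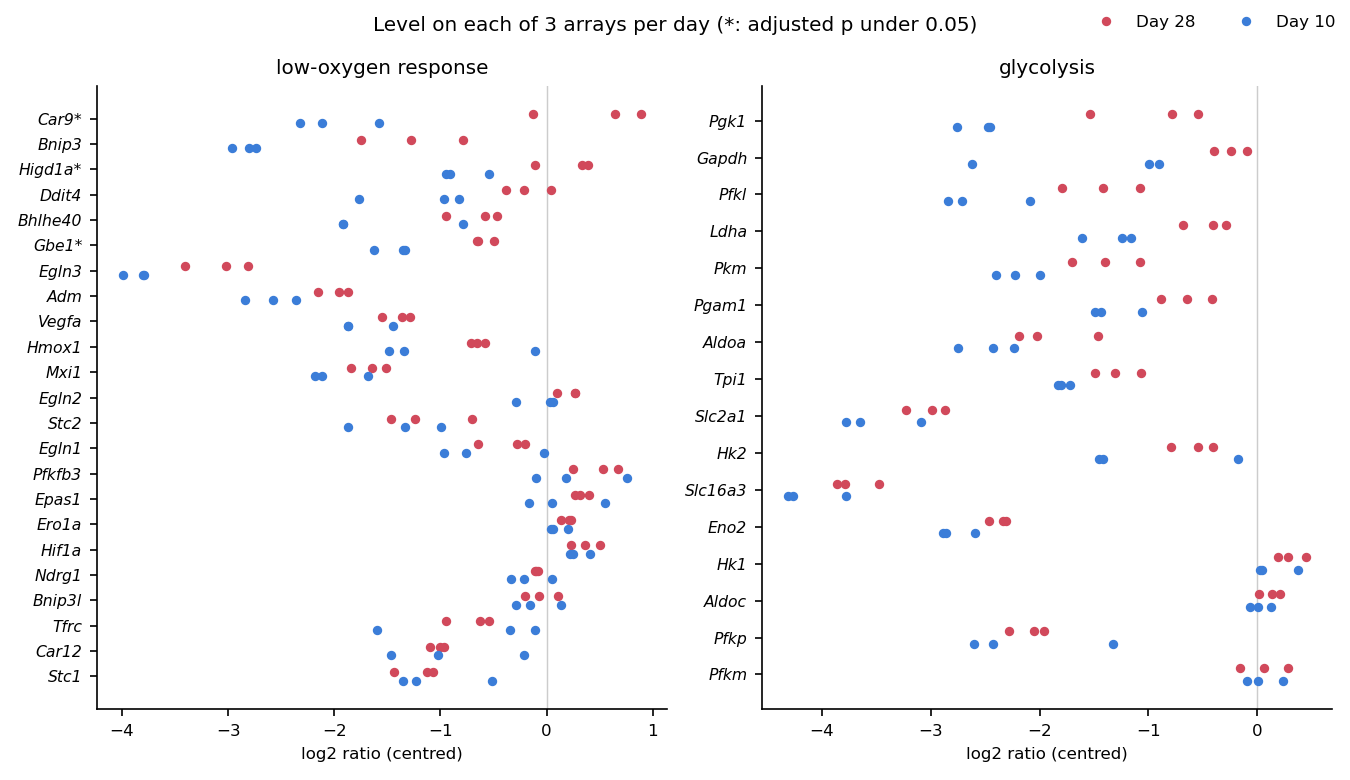
Log2 ratios (x axis, centred) of 23 low-oxygen genes (left) and 16 glycolysis genes (right) on the 3 arrays of Day 28 (red) and the 3 of Day 10 (blue), sorted by difference; an asterisk marks genes that passed. Car9, Bnip3 and Pgk1 show a wide gap between the days, and Vegfa, Hif1a, Pfkm and Stc1 overlap.

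Promoter windows of 3 of these genes are shown because the low-oxygen list was built from known HIF targets. The windows are from RefSeq on GRCm38.p6: Car9 at chr4:43506776-43507075, Pgk1 at chrX:106186850-106187149 and Ldha at chr7:46845554-46845853, all on the plus strand, with ACGTG on either strand in capitals.
Car9: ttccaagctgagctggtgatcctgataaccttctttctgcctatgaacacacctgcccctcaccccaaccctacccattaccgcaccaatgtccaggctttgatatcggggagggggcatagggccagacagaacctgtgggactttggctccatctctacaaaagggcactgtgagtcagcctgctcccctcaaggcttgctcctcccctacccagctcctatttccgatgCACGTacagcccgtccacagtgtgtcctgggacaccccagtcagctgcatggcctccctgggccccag
Pgk1: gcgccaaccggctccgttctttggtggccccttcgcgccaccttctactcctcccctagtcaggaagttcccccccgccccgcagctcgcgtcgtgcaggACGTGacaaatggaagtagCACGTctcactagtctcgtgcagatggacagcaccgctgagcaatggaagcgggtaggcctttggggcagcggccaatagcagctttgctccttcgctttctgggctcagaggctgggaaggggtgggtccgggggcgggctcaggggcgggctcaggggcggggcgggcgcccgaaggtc
Ldha: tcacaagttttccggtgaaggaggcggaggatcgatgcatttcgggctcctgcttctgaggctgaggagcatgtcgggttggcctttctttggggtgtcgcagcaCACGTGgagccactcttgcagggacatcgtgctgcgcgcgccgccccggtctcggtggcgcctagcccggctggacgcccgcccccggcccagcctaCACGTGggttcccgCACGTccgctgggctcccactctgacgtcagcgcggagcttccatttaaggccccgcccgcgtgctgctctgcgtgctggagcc
Car9 had 1 match, at -18 from the gene's start, and Pgk1 had 2, at -150 and -131. Ldha had 5, of which 4 overlap in pairs in the palindrome of the core. The Ldha window shown was taken because it held the most matches, and the other RefSeq window of Ldha held none. Gbe1 had none in its window. A match was present in at least 1 window for 13 of 17 low-oxygen genes with a window (76.5%) and for 12 of 16 glycolysis genes (75.0%), against 21.8% of 27025 genes with a RefSeq window. Among the 15 genes with the largest rises, 13 had a window and 2 of these held the core (15.4%). The matches describe the letters of the window and say nothing on binding here.

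Both lists had their lowest array medians on Day 5. The median of the 16 glycolysis genes was -1.33, -1.72 and -2.05 on the Day 2 arrays, -2.34, -2.28 and -1.89 on Day 5, -2.12, -2.02 and -1.86 on Day 10, and -1.05, -1.51 and -0.81 on Day 28. The Day 10 arrays of the low-oxygen list spread widely, at -1.02, -1.23 and -0.54, with Day 10 replicate 3 inside the Day 28 range of -0.64 to -0.47. Without that array the median difference was 0.46 for the low-oxygen list and 0.69 for glycolysis, and without Day 10 replicate 1 it was 0.15 for the low-oxygen list. The difference between the last and the first interval passed for Car9 (3.29, limma adjusted p = 0.00957), Gbe1 (1.27, 0.00705) and Higd1a (1.42, 0.0355). These genes were named for their last-interval change, which is part of that difference. Oxidative phosphorylation had 44 of 62 genes above 0, a median of 0.14 and no call, with 21 genes (33.9%) wholly above, against 9.74% of all rows, and 5 wholly below.

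**Figure D4:**
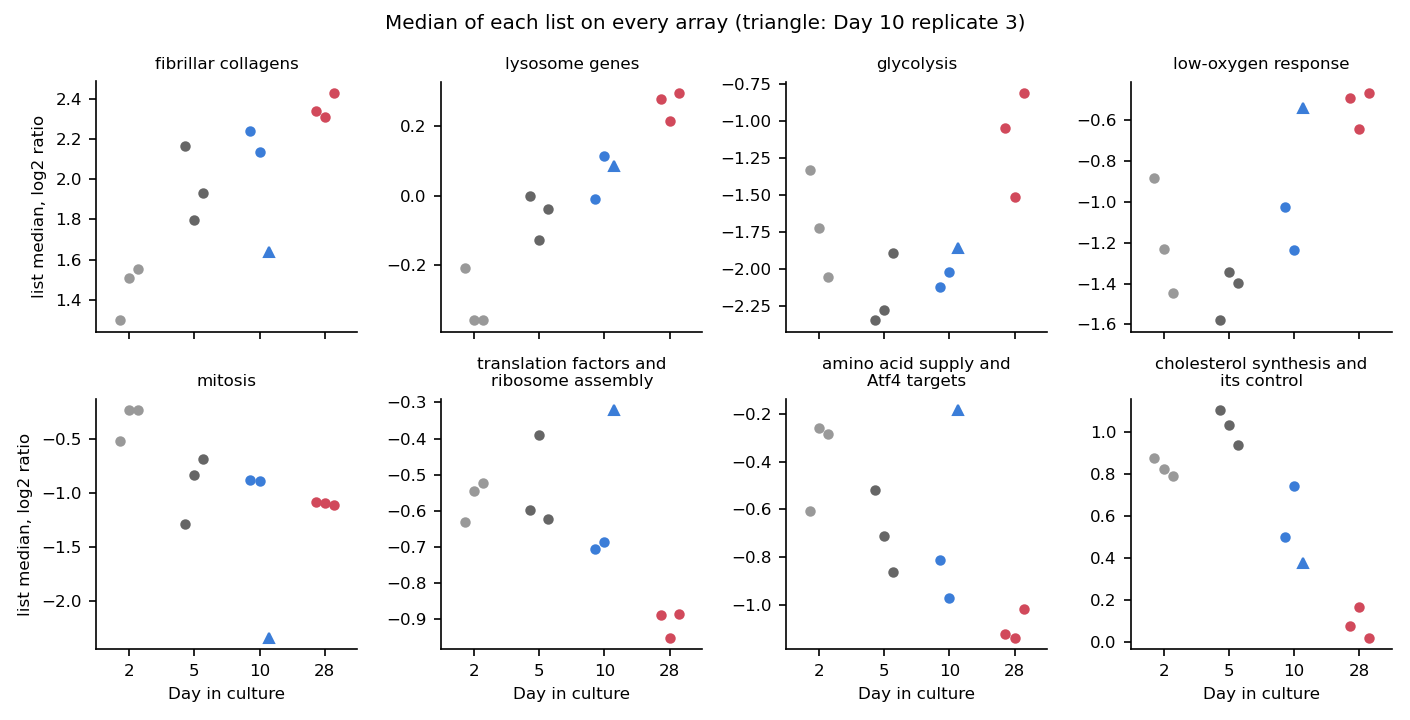
Median log2 ratio (y axis) of 8 gene lists on each of the 12 arrays by day in culture (x axis); the triangle is Day 10 replicate 3. Lysosome genes were highest on the 3 Day 28 arrays, cholesterol synthesis and translation lists were lowest on Day 28, and the triangle lies outside the other Day 10 arrays for mitosis, translation and the Atf4 list.

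Lysosomal enzymes leaned higher on Day 28, with 2 single calls. Of 41 measured genes 2 rose, against 0.708% of all rows, and 32 lay above 0, with a median of 0.25 (0.14 without Day 10 replicate 1). All Day 28 arrays lay above all Day 10 arrays for 12 (29.3%, against 9.74% of all rows) and below them for 2. Hexa, a subunit of the hexosaminidase that trims gangliosides and glycosaminoglycans, read 1.54, 1.67 and 1.78 on Day 28, against 0.47, 1.05 and 0.95 on Day 10, a rise of 0.84 (SE 0.16, limma adjusted p = 0.0264). Ctsl, the cysteine protease cathepsin L, read -1.59, -1.83 and -1.51 on Day 28, against -2.96, -2.74 and -2.25 on Day 10, a rise of 1.00 (SE 0.17, limma adjusted p = 0.0146). Each kept its call in 8 of the 12 fits that left out 1 array. The aspartic protease gene Ctsd differed by 0.77 and the lysosomal lipase gene Lipa by 0.59, and neither passed. The list's array medians lay between -0.36 and -0.21 on Day 2 and between -0.13 and 0 on Day 5, and were -0.01, 0.12 and 0.08 on Day 10 and 0.28, 0.21 and 0.30 on Day 28. All Day 28 arrays were above those of every earlier day.

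Outside that list, 4 further genes of lysosomes, collagen uptake or cathepsin inhibition rose, each named after its values were seen. Manba, lysosomal beta-mannosidase, read 0.53, 0.60 and 0.60 on Day 28, against -0.40, -0.62 and -0.18 on Day 10, a rise of 0.98 (SE 0.15, limma adjusted p = 0.00693) that kept its call in all 12 fits. Laptm4b, a lysosomal membrane protein, rose by 0.85, and Mrc2, a receptor that takes collagen fragments into the cell, by 1.23, the last kept in only 3 of the 12 fits. Cst3, the secreted cathepsin inhibitor cystatin C, read 2.15, 2.29 and 1.55 on Day 28, against 0.63, 0.68 and 1.23 on Day 10, a rise of 1.15 (SE 0.21, limma adjusted p = 0.0219). Ctsk, a member of the lysosome list and the collagen-degrading cathepsin best known from osteoclasts, read 4.97, 5.63 and 5.05 on Day 28, against 4.22, 5.10 and 3.01 on Day 10. These Ctsk values overlap and did not pass, and no other osteoclast gene among the 10 measured was called, with Acp5 at 0.25, Tnfrsf11a at -0.02 and Calcr at 0.13.

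Ccl8, Cd200 and F13a1, genes often studied in blood cells, were among the 15 largest rises. Ccl8, a chemokine that draws monocytes, read 2.91, 3.43 and 2.67 on Day 28, against -0.65, -0.41 and -0.04 on Day 10 (difference 3.37, SE 0.20). Il33, an alarmin cytokine, read 0.90, 0.97 and 0.80 on Day 28, against -0.73, -0.69 and -1.84 on Day 10 (difference 1.98, SE 0.29, limma adjusted p = 0.00487). Both kept their call in all 12 fits, and they were the 2 calls among 40 chemokines and cytokines (against 0.708% of all rows that rose), where the monocyte chemokine genes Ccl7 and Ccl2 differed by 1.00 and 0.43. Srgn, the core protein of a secretory granule proteoglycan, named after its values were seen, read -0.11, -0.29 and -0.13 on Day 28, against -2.50, -2.58 and -1.19 on Day 10 (difference 1.91, SE 0.28). Cd200, an immunoglobulin-family membrane protein that restrains myeloid cells, rose by 2.96, with a Day 2 mean of -0.18. F13a1, the transglutaminase subunit of clotting factor XIII, which osteoblasts also make, read 8.24, 8.77 and 8.60 on Day 28, against 5.27, 5.41 and 3.43 on Day 10 (difference 3.83, and 3.19 without Day 10 replicate 3). It was the 1 call among 19 complement and acute phase genes, against 0.84% of all rows.

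Markers of blood cells gave 1 call on 1 probe. None of 15 macrophage markers passed, 9 lay above 0 with a median of 0.06, and the list's array medians were -0.22, -0.23 and -0.15 on Day 28, against -0.16, -0.10 and -0.18 on Day 10. Ptprc, the pan-leukocyte phosphatase CD45, read -2.46, -3.95 and -3.73 on Day 28, against -4.00, -4.97 and -3.64 on Day 10, far below the reference on all of them. Of 14 lymphocyte markers Ighm alone was called, against 0.84% of all rows. That Ighm probe read 2.57, 3.75 and 3.11 on Day 28, against 0.02, -0.16 and -0.19 on Day 10, and the other read 0.17, -0.11 and 0.22 on Day 28, against -0.64, 0.11 and -0.10 on Day 10. The probes disagree, at 3.25 and 0.31 (1.78 when averaged), and Cd79a and Cd3e differed by 0.24 and 0.35. A ratio has no true zero, so absence of these transcripts was not shown.

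Steap3 was among the 15 largest rises; of the other genes in this paragraph, Gstm5 was called in a list and the rest were chosen after their values were seen. Steap3, a ferrireductase of the iron uptake route, read -0.09, -0.12 and -0.18 on Day 28, against -2.36, -2.01 and -2.25 on Day 10. The Day 10 mean of -2.21 lay close to those of Day 2 (-2.33) and Day 5 (-2.35), and the rise of 2.08 (SE 0.18, limma adjusted p = 6.38e-05) kept its call in all 12 fits. Selenop, a selenium carrier, rose by 1.28, Tcn2, the transport protein of vitamin B12, by 1.22, and the taurine transporter Slc6a6 by 1.67, each kept in all 12 fits. Apod, a secreted lipid carrier, read 8.02, 8.14 and 8.27 on Day 28, against 6.24, 6.79 and 6.23 on Day 10, and had risen by 2.70 already between Day 2 and Day 5. Gstm5, a glutathione transferase, rose by 1.13 and was the 1 call among 37 glutathione and antioxidant genes, against 0.84% of all rows. Of these 37 genes, 29 lay above 0 with a median of 0.17 (0.07 under quantile normalization). Duoxa1, the maturation factor of an oxidase that makes hydrogen peroxide, rose by 1.80.

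Single transcription factor genes rose or fell. Sox4, a transcription factor active in bone-forming cells, read 1.18, 1.20 and 1.05 on Day 28, against -0.36, -0.09 and -0.15 on Day 10, a rise of 1.34 (SE 0.16, limma adjusted p = 0.00114). Its close relative Sox11 read -0.14, 0.17 and -0.11 on Day 28, against 0.97, 0.73 and 1.23 on Day 10, a fall by 1.00 (SE 0.18, limma adjusted p = 0.021). The other Sox11 probes differed by -0.85 and -0.24, and the call was lost when probes were averaged. Rbpj, the nuclear partner of Notch, fell by 0.76, with Day 28 arrays at -1.50, -1.54 and -1.35 and Day 10 arrays at -0.73, -0.68 and -0.71. Tnip1, an inhibitor of NF-kappaB signalling, rose by 1.57 (SE 0.14) with Day 28 arrays at 1.64, 1.76 and 1.49 and Day 10 arrays at 0.01, -0.01 and 0.17. Sox4, Rbpj and Tnip1 were named after their values were seen.

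Ribosomal proteins were 6 of the 19 genes with a symbol that fell. Of 58 cytosolic ribosomal proteins 6 fell (10.3%, against 0.131% of all rows), none rose, 12 lay above 0 and the median was -0.15. Rps7 read -1.50, -1.16 and -1.43 on Day 28, against -0.28, -0.41 and -0.09 on Day 10, a fall by 1.10 (SE 0.15, limma adjusted p = 0.00235) that kept its call in all 12 fits. Rps12 read -0.92, -0.59 and -0.84 on Day 28, against 0.07, 0.13 and 0.03 on Day 10, a fall by 0.86 (SE 0.14, limma adjusted p = 0.00927). The remaining 4, Rpl37, Rpl14, Rpl8 and Rps3a1, fell by 1.08, 1.02, 0.97 and 0.60, with the call kept in 2, 2, 7 and 0 of the 12 fits. All Day 28 arrays lay below all Day 10 arrays for 20 members (34.5%, against 8.51% of all rows), and above them for Rpl36, Rpl9 and Fau. Ribosomal protein genes have many near-identical pseudogenes, so a probe can read several copies.

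Factors that serve the ribosome leaned the same way with no call. Of 36 translation and ribosome assembly genes 7 lay above 0 and the median was -0.23. All Day 28 arrays lay below all Day 10 arrays for 14 (38.9%), against 8.51% of all rows. They lay above them for 2 (5.56%), against 9.74% of all rows. The elongation factor gene Eef1a1 read -1.70, -2.17 and -0.98 on Day 28, against -0.78, -0.68 and 0.03 on Day 10, and the nucleolar gene Nop56 read -1.80, -1.88 and -1.65 on Day 28, against -1.11, -1.14 and -1.37 on Day 10. Neither passed, with adjusted p-values of 0.109 and 0.133 from limma. Abce1, which splits ribosomes for reuse, fell by 0.75 (SE 0.13, limma adjusted p = 0.0149), with Day 28 arrays at -1.37, -1.28 and -1.34 and Day 10 arrays at -0.63, -0.58 and -0.52. It was named after its values were seen, and its call was lost without any 1 of the Day 28 arrays (differences of -0.78 to -0.72).

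Genes of amino acid supply, many of them Atf4 targets, had 1 fall. The list's array medians were -1.12, -1.14 and -1.02 on Day 28, against -0.81, -0.97 and -0.18 on Day 10, with the array that stood apart the highest. Bcat1, which starts the breakdown of branched-chain amino acids, was the 1 call among 28, against 0.84% of all rows. It read -2.14, -1.63 and -1.61 on Day 28, against -0.81, -1.03 and -0.45 on Day 10 (a fall by 1.03, SE 0.21, limma adjusted p = 0.0353, kept in 5 of the 12 fits). Its mean was 0.67 on Day 2 and -0.28 on Day 5. Psat1, a serine synthesis enzyme, read -1.82, -1.92 and -2.04 on Day 28, against -1.13, -1.22 and -1.23 on Day 10 (adjusted p = 0.0506 by limma). Chac1, Trib3, Slc7a5 and Asns, stress-induced Atf4 targets, read 0.69, 0.50, 0.14 and -0.54 on Day 10 replicate 3, while the other Day 10 arrays lay between -2.69 and -1.81. Their differences of -1.79, -1.49, -1.34 and -1.17 did not pass. The median of the list was -0.33 with that array and -0.16 without it.

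Cholesterol synthesis showed the same lean without a call. Of 21 genes 5 lay above 0, the median was -0.35 (-0.15 without Day 10 replicate 1) and 7 (33.3%) lay wholly below, against 8.51% of all rows. Another 2 (9.52%) lay wholly above, against 9.74% of all rows. Sqle and Msmo1, enzymes of the sterol pathway, differed by -0.67 and -0.68, each with an adjusted p = 0.0613 from limma. Array medians of the list were 1.10, 1.03 and 0.93 on Day 5, 0.50, 0.74 and 0.37 on Day 10 and 0.08, 0.17 and 0.02 on Day 28. Dividing-cell genes gave no call in either direction: the 45 mitosis genes had a median difference of 0.26, which became -0.13 without Day 10 replicate 3, and the 49 DNA replication genes had 0.13, which became -0.06. Cldn1, a tight junction protein, fell by 2.36 (SE 0.37, 5.14-fold, limma adjusted p = 0.00747), with Day 28 arrays at 0.26, 0.40 and 0.43 and Day 10 arrays at 2.97, 2.75 and 2.46. The other claudin genes measured, Cldn3, Cldn4, Cldn5 and Cldn11, differed by at most 0.09 in size and did not pass.

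Several further lists gave no call in either direction. Among them were 47 genes of endoplasmic reticulum folding and secretion (median 0.04), 36 interferon response genes (0.13), 27 integrin and focal adhesion genes (0.11), 28 genes of glycosaminoglycan synthesis and breakdown (0.04) and 26 inhibitors of the cell cycle (0.13, and 0.04 under quantile normalization). Without Day 10 replicate 3 the integrin and glycosaminoglycan medians both turned to -0.08. Markers of adipocytes, smooth muscle, skeletal muscle and endothelium had no call either, with medians of -0.01, 0.01, 0.05 and 0.01. At an unadjusted p under 0.05, 1884 of all rows (10.8%) would have been counted between Day 28 and Day 10.

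Most rows that rose in the last interval were not called in the first, though the share called there was larger than over all rows. The interval from Day 2 to Day 5 shares no array with the interval from Day 10 to Day 28, though the fit shares 1 estimate of the spread. Of the 124 rising rows, 68 lay above 0 in the earlier interval, 4 had risen in it and 4 had fallen in it. Over all rows, 49.5% lay above 0 in that interval, 0.2% rose and 0.137% fell. The 4 that rose in both were Mmp13, Apod, Col24a1 and Fxyd1, a regulator of the sodium pump, and the 4 that had fallen were Aig1, Ltbp2, H1f4, a linker histone, and Gpc1, a cell surface proteoglycan. Day 28 had the highest mean of all days for 120 of the 124 rises and the lowest for 20 of the 23 falls. Choosing rows by Day 28 against Day 10 favours this, and no share over all rows was taken beside it. A direct test of the difference between both intervals passed for 125 rows (0.714%), and these included 54 of the rises and 8 of the falls. The last change is a term of that difference. Rows chosen for a large last change therefore lean towards passing with its sign, as all of these did. That count was 53 to 225 with 1 array left out (53 without Day 28 replicate 1, 225 without Day 10 replicate 3) and 505 without both Day 10 replicate 3 and Day 5 replicate 2.

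**Figure D5:**
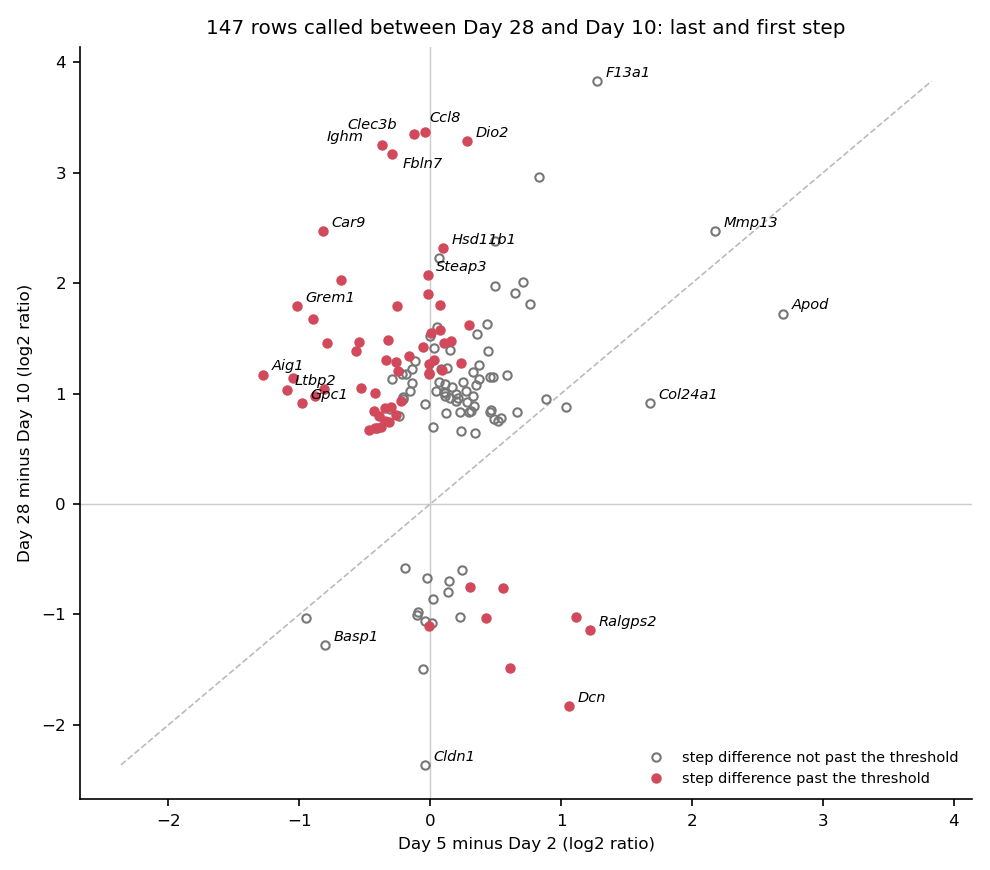
Change from Day 2 to Day 5 (x axis, log2) and from Day 10 to Day 28 (y axis, log2) for the 147 rows that passed between Day 28 and Day 10; filled points also passed the test of the difference between both changes, and the dashed line marks equal changes. Ccl8, Ighm, Fbln7 and Dio2 sit near 0 on the x axis and above 3 on the y axis, while Mmp13 lies close to the dashed line.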

How the data were processed

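Cells of 4 culture days were measured on 12 two-colour arrays printed with long oligonucleotides, 3 per day, with the cells labelled in Cy3 and a mouse reference RNA in Cy5. The deposited values are 1 log ratio per spot, taken here as log2, which the authors made with R 2.13.0, per the submitters' processing notes. Neither the direction and log base nor the background correction, normalization and treatment of weak spots is given in the sources used here, and spot intensities were not used, so dim and bright spots cannot be told apart.

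Of 17664 spots, 14010 had 1 gene name, 13 had several and 3641 had none. The 170 spots of 10 repeatedly printed genes were averaged per gene, which left 17504 rows. Each array was centred on its median (largest shift 0.0132). limma 3.58.1 in R 4.3.3 fitted 1 mean per day over all arrays, with 8 residual degrees of freedom, and differences between days were tested two-sided with Benjamini-Hochberg adjustment over all rows at a threshold of 0.05. The fit was tested on simulated data. The naming rule took the 15 largest rises, the 12 largest falls, list members that passed, defining list members, and the 5 largest step differences in each direction. Others are said to be named after their values were seen. Not every gene of the rule is described. Left out were the rises Cdkal1 (2.23) and Hyal6 (2.03) and the falls Basp1 (-1.28) and Kif21a (-1.06). Many defining members were also left out, among them Sp7 (-0.29), Pdpn (0.44) and Lox (0.56), which did not pass. Members and lists were chosen with earlier results of these data known. Same-numbered replicates of Day 28 and Day 10 were not paired, since their deviations correlated at -0.06, 0.08 and -0.06. Alternatives were quantile normalization, equal array spread, no centring, 6 arrays only, a replicate block, array weights, another prior, named rows only, averaged probes, and each array left out.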

Additional observations from a re-analysis of the deposited data

Results flagged for a closer look

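For 10 genes the change from Day 10 to Day 28 differed from the change from Day 2 to Day 5 by the direct limma test of that difference, and these were the 5 largest values in each direction. Among those that were more positive in the last interval, the difference between both changes was 3.727 for Id3, 3.618 for Ighm, 3.482 for Clec3b, which encodes the plasminogen-binding protein tetranectin, 3.466 for Fbln7 and 3.407 for Ccl8. Id3 was lower by 2.26 in the first interval, where it passed, and differed by 1.46 in the last, where it did not. The other 4 differed by at most 0.37 in size in the first interval and rose by over 3 in the last. For Ighm these values came from the called probe, while its other probe differed by 0.31 in the last interval and did not pass.

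Among those more negative in the last interval, the difference was -2.893 for Dcn, -2.557 for Tnnc1, the troponin C of slow muscle and heart, -2.423 for Agt, which encodes angiotensinogen, -2.361 for Ralgps2 and -2.02 for Egr1, an immediate early transcription factor. Tnnc1, Agt and Egr1 rose in the first interval, by 1.75, 2.02 and 1.53, and their last-interval differences of -0.81, -0.40 and -0.49 did not pass. On its called probe Ralgps2 rose by 1.22 and then fell by 1.14, both past the threshold. The fall kept its call in 16 of 22 alternatives. A further Ralgps2 probe differed by -0.47 in the last interval and did not pass.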

How the results depend on the processing

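Numbers of called rows moved with the settings, while no gene called between Day 28 and Day 10 and named by the rule changed direction under any alternative run. In place of 147 rows (124 higher and 23 lower), the fit on 6 arrays gave 65 (56 and 9), quantile normalization 90 (67 and 23), array weights 420 (287 and 133), and leaving out both Day 10 replicate 3 and Day 5 replicate 2, chosen after seeing the data, 261 (195 and 66). With 1 array left out the counts ran from 65 to 198, with 60 to 152 higher and 5 to 46 lower. With the replicate number as a block, a pairing the data did not bear out, 116 rows passed, 101 higher and 15 lower. The step difference, called for 125 rows, was called for 77 with the replicate block, 284 with array weights, 505 without both arrays, and 53 to 225 with 1 array left out. The 6-array fit has fewer arrays to estimate the spread; the cause of the other shifts was not tested. Of 52 called genes named by the rule, 18 kept their call under all alternatives. Of 43 gene lists, 15 had a median that changed sign under at least 1 alternative: mitosis (-0.13 to 0.40), DNA replication (-0.06 to 0.26), small leucine-rich proteoglycans (-0.33 to 0.26), matricellular glycoproteins (-0.01 to 0.26), glycosaminoglycans (-0.08 to 0.12), other collagens (-0.06 to 0.12), Wnt (-0.05 to 0.09), fatty acid synthesis (-0.17 to 0.04), complement (-0.06 to 0.19), integrins (-0.08 to 0.17), immediate early genes (-0.10 to 0.20), and the macrophage, adipocyte, smooth muscle and endothelial markers. The fibrillar collagen median ran from 0.043 to 0.61, that of glycolysis from 0.33 to 0.69.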
